A study of Mus musculus with 8 samples.

Results

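The genes described here are 44 mouse genes of the heat shock response and the unfolded protein response, chosen by name as a list of chaperones, their regulators and the machinery of protein quality control in the endoplasmic reticulum (ER). Every array probe whose accession maps to a listed gene was kept. Probes were matched for 42 of the 44 genes, 72 probes in all, and no probe was matched by accession for Dnajb5 or Pdia3. They stand against 19092 genes named on the array, of which 13590 were tested. RNA came from whole hearts of C57BL/6 embryos (C57BL/6J in the methods) at E18.5, 4 of wild-type genotype (WT) and 4 labelled SIRT1 KO, 1 heart per one-color array, on a chow diet and with no treatment. The KO allele is described as a whole-body germ-line deletion of Sirt1, not one limited to cardiomyocytes. The mice came from matings of heterozygotes, and hearts of both sexes were used. Because RNA was taken from the whole organ, fewer cells of a type and less RNA per cell cannot be told apart.

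Cells keep proteins folded with a set of chaperones that bind exposed hydrophobic stretches and release them in cycles driven by ATP. When unfolded proteins accumulate in the cytosol, heat shock factor 1 forms trimers, binds heat shock elements in the promoters of chaperone genes and raises their transcription. SIRT1, an NAD-dependent deacetylase, is known to act on this factor. When unfolded proteins accumulate in the ER, the membrane sensors IRE1, PERK and ATF6 start the unfolded protein response, which acts through ER stress elements and related motifs. Heart muscle depends on this machinery because the myosin heads of the sarcomere need dedicated chaperones to fold and because its proteins are under constant mechanical load.

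Values are log2 of the processed signal minus the array's 75th percentile, so that 0 is the 75th percentile of that array and a difference of 1 is a 2-fold change. They compare a probe with itself across hearts and not one probe with another. The 75th percentiles lay between 777 and 1033 intensity units, 59.5% to 64.9% of probes were well above background, and no spot was saturated. All WT arrays were on 1 slide and all SIRT1 KO arrays on another, so that slide, scan and genotype cannot be told apart. The brighter of the 2 Sirt1 probes was 0.54 ± 0.12 (SE) higher in the hearts labelled SIRT1 KO (adjusted p = 0.0323, limma), and the other differed by -0.11 ± 0.11 (adjusted p = 0.589). Where these probes lie relative to the deleted exons is not given in the sources used here, so they check nothing about the labels, and genotypes were taken from the labels alone. Nothing in the labels says how the embryos were distributed over litters. Cardiac markers such as Myh6, Tnnt2 and Nkx2-5 were well above background on every array. Genes of the lung epithelium were above background on too few arrays to test, and 1 of 6 thymocyte genes was tested. That gene, Lck, lay far below the 75th percentile and differed by -0.70 ± 0.18 without overlap between the genotypes (adjusted p = 0.0679, limma). The summed linear signal of 6 liver genes ran from 11.2 to 28.3 in WT hearts and from 13.2 to 124 in those labelled SIRT1 KO, highest in replicates 1 (124) and 4 (64.7) of the latter.

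Heat shock and unfolded protein response genes differed little between the genotypes. Of 71 member probes tested, 1 was higher in the hearts labelled SIRT1 KO and 0 were lower at an adjusted p under 0.05 (limma, n = 4 per genotype). Among all probes tested, 3.97% were higher and 0.910% lower. Counting each gene by its brightest tested probe, 1 of 42 members was higher and 0 were lower, against 3.69% and 0.890% of all genes tested. The single gene past the threshold was Smyd1. Before adjustment, 7 of 71 member probes had p under 0.05, against 21.5% of all probes tested, and so did 4 of 42 genes (Smyd1, Hspb8, Stip1 and Eif2ak3), against 20.4%. The genotypes did not overlap in 7 of 71 member probes, against 13.7% of all probes tested. By the brightest probe they did not overlap in 3 of 42 genes (Smyd1, Unc45b and Stip1), against 14.0%. These shares did not exceed those of the array as a whole.

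Differences between the genotypes were small in size as well. The median over the 42 members was -0.05 on the log2 scale, with 15 positive and 27 negative values, and the median over all genes tested was -0.01. The lowest difference was -0.28 (Hspb8) and the highest 0.41 (Smyd1). In 36 of 42 genes the 95% interval lay within 0.5 log2 units of 0 on both sides, which is 1.41-fold, and in all 42 it lay within 1 unit. Of the 13532 genes tested that had a value on every array, 10103 lay within 0.5 and 12673 within 1 unit. The median SD between hearts was 0.12 among WT and 0.15 among SIRT1 KO. The balance of signs depended on single hearts and on the scaling. Leaving out 1 heart, the member median ran from -0.071 (without WT replicate 3) to -0.008 (without WT replicate 4, with 20 positive and 22 negative). After median scaling 37 of 42 members were negative, with a member median of -0.18 while the median of all genes tested moved to -0.14. With no scaling at all 41 of 42 were negative, with a member median of -0.27 against -0.23 for all genes tested.

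**Figure D1:**
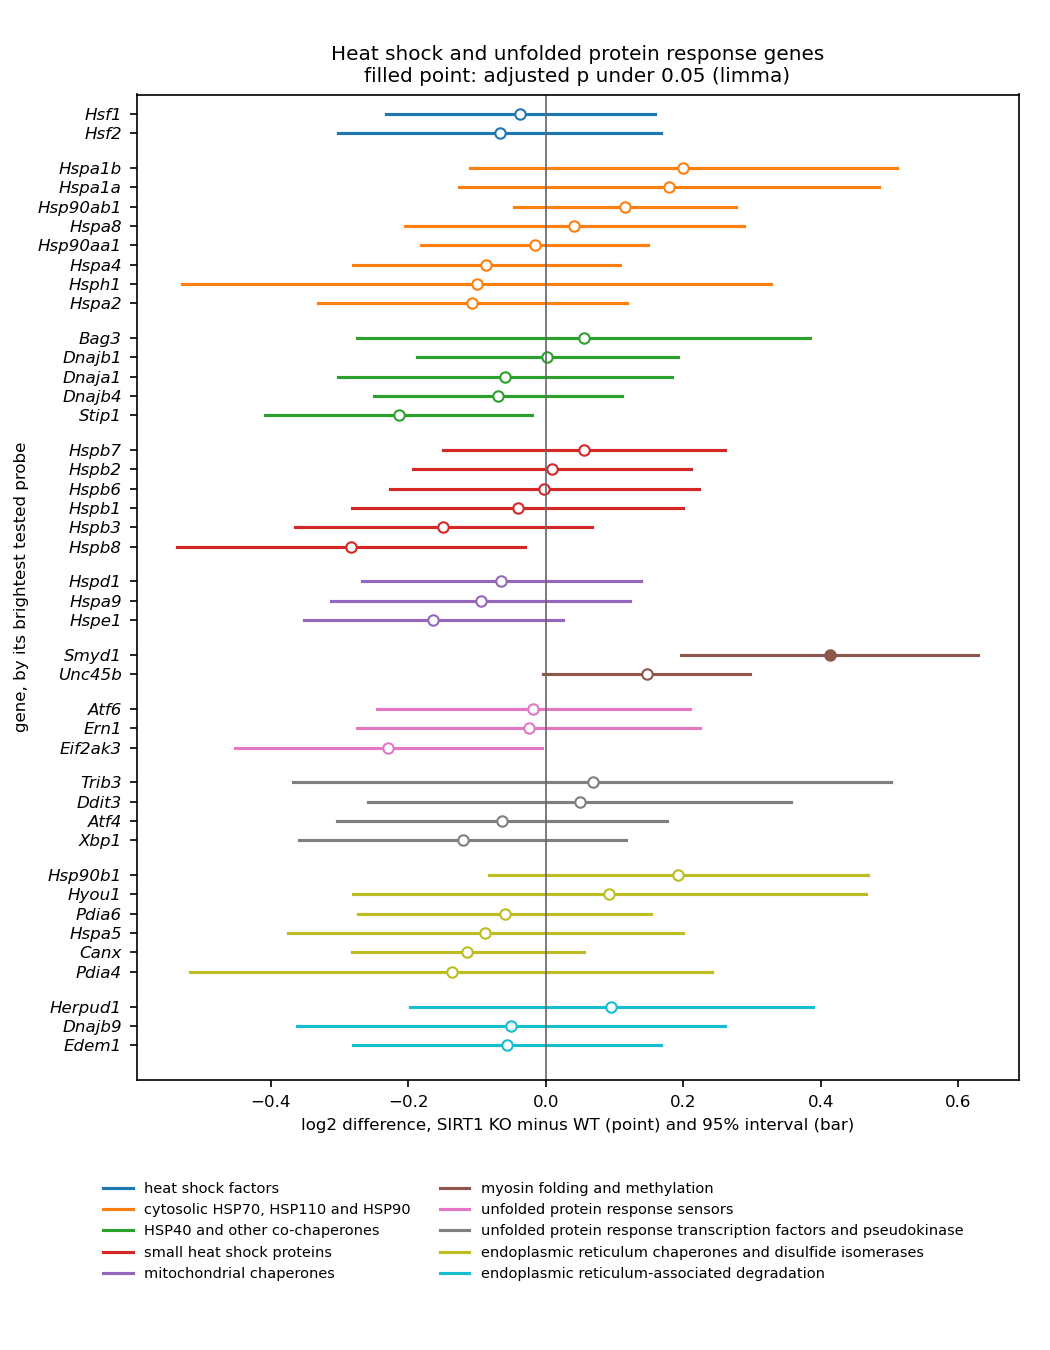
Log2 difference between SIRT1 KO and WT hearts for each of the 42 measured genes by its brightest tested probe, grouped by role, with the 95% interval of the limma fit (n = 4 per genotype). Only the point of Smyd1, at 0.41, is filled (adjusted p under 0.05), and most intervals cross 0.

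The highest difference of the list was that of Smyd1, which is described here with Unc45b, the other muscle-specific gene of its role group. Smyd1 encodes a lysine methyltransferase of striated muscle that is needed for sarcomere assembly, and Unc45b encodes the myosin chaperone of striated muscle. On the brighter Smyd1 probe WT hearts, in the order of replicates 1 to 4, gave 3.04, 2.76, 2.97 and 2.79, and those labelled SIRT1 KO gave 3.30, 3.21, 3.48 and 3.23. All SIRT1 KO values lay above all WT values. The difference was 0.41 ± 0.10 (SE), which is 1.33-fold, with a 95% interval of 0.20 to 0.63 and an adjusted p of 0.0432 (limma), and the exact two-sided permutation p of 0.0286 is the smallest that 4 against 4 can give. The second Smyd1 probe gave 2.53, 2.43, 2.62 and 2.60 in WT and 2.83, 2.87, 3.13 and 2.73 in SIRT1 KO. These did not overlap either, and the difference of 0.34 ± 0.10 missed the threshold (adjusted p = 0.0859, limma). The call on the brighter probe was close to the threshold. It was held without WT replicate 1 (adjusted p = 0.0499, limma) and lost without any other single heart, namely WT replicates 2 (0.113), 3 (0.0858) and 4 (0.11) and SIRT1 KO replicates 1 (0.101), 2 (0.075), 3 (0.059) and 4 (0.0611), while the difference itself stayed between 0.36 and 0.46. With the difference unchanged at 0.41, it was lost with the methods' analysis of variance (adjusted p = 0.0852) and with no filter on dim probes (adjusted p = 0.0874, limma). It was also lost with median scaling (0.28, adjusted p = 0.119, limma) and with no scaling (0.19, adjusted p = 0.17), which shift the median of all genes tested as given above.

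Unc45b gave 5.44, 5.30, 5.43 and 5.44 in WT hearts and 5.54, 5.58, 5.54 and 5.53 in those labelled SIRT1 KO. The SIRT1 KO hearts were again all above the WT hearts and lay within a narrow band, with an SD of 0.02 against 0.07 in WT, where replicate 2 was the lowest. The difference was 0.15 ± 0.07, with a 95% interval from -0.004 to 0.297 (adjusted p = 0.245, limma), and it was -0.07 with no scaling, where the median of all genes tested was -0.23. Both genes are expressed in muscle cells. Among 10 cardiomyocyte markers, all tested, 8 were positive and 2 negative with a median of 0.09, and 0 passed the threshold by the brightest probe. Their summed linear signal was 1560 to 1730 in WT and 1640 to 1940 in SIRT1 KO. One further probe of Myh7, the slow myosin heavy chain of the fetal ventricle, was 0.36 ± 0.07 higher (adjusted p = 0.0283, limma), and its brightest probe differed by 0.31 ± 0.11 (adjusted p = 0.136). The part of these markers in the Smyd1 and Unc45b differences was not tested.

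**Figure D2:**
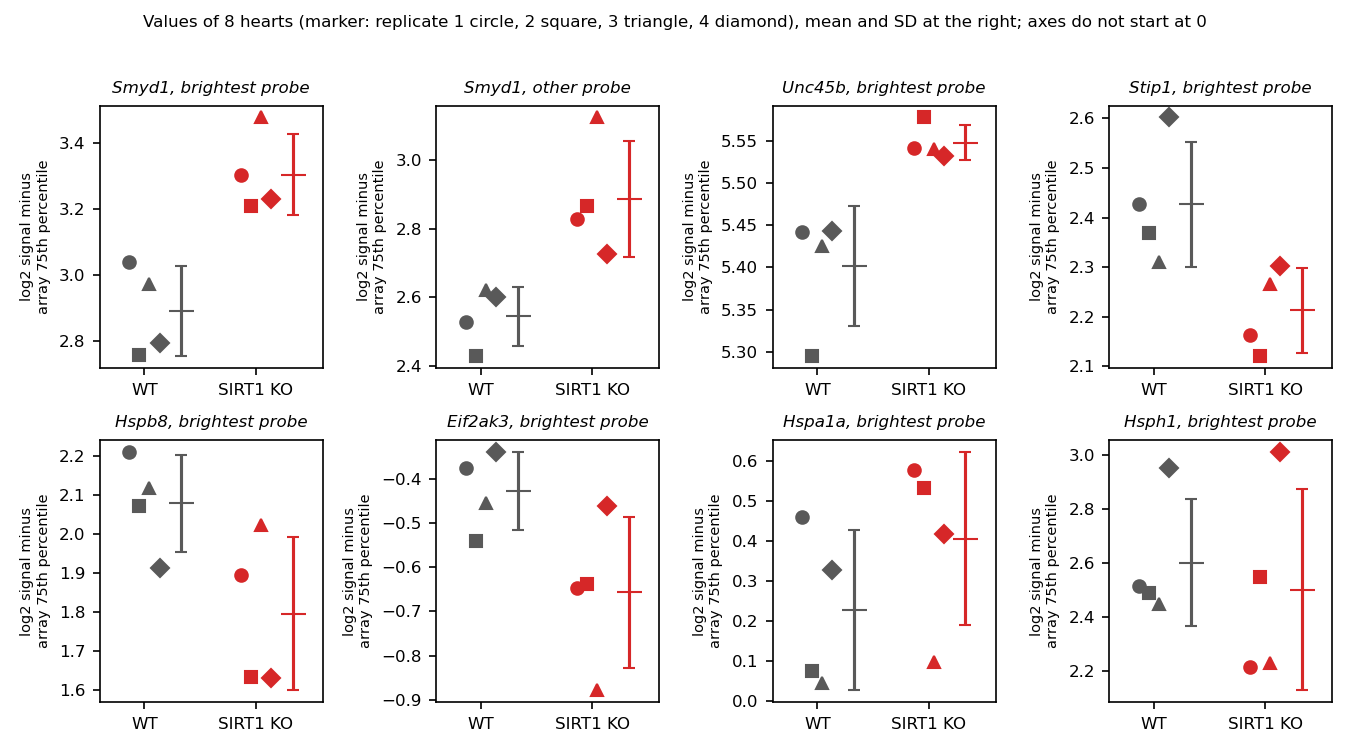
Values of single hearts for 8 probes of members, as log2 signal minus the array's 75th percentile, with the mean and SD of 4 hearts beside each group. Both Smyd1 probes and Unc45b have every SIRT1 KO heart above every WT heart, Stip1 has every SIRT1 KO heart below, and Hsph1 has 1 high heart in each genotype, replicate 4.

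Promoter sequences are shown for the genes whose regulation by heat shock or ER stress factors is well known and for Smyd1, the gene past the threshold. They come from the RefSeq promoter table of GRCm38.p6, which held 36 of the 44 listed genes, and the 250 bases before each start were searched on both strands. A heat shock element was taken as 3 alternating units, GAANNTTCNNGAA or TTCNNGAANNTTC, where N is any base. It was found in 0.466% of the 32851 promoters of the table and, among the members, in Hspd1 and Hspe1. A single pair of units, GAANNTTC or TTCNNGAA, which every such element also contains, was found in 12.8% of all promoters and in 11 members. These were Hspa1a, Hspa1b, Hsph1, Dnaja1, Dnajb4, Hspb1, Hspb3, Hspb6, Hspd1, Hspe1 and Eif2ak3. The ER stress element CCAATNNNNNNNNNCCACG was found in 0.113% of all promoters and in the 4 ER folding genes Hspa5, Hsp90b1, Canx and Pdia6. The element TGACGTGG was found in 0.563% of all promoters and in 0 members. The shares count promoters, of which a gene can have several, while a member was counted if any of its promoters held the motif. Shares and member counts are thus not in the same unit. A match is a description of the letters and not evidence of binding. No heat shock unit pair or ER stress element was found in this window of Smyd1, which lies on the minus strand at chr6:71262282-71262531:
Smyd1: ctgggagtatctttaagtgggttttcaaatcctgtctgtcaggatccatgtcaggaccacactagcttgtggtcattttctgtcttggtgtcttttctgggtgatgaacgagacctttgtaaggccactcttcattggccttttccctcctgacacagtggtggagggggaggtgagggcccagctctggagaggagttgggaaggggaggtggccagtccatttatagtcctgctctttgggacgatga

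Heat shock factors, the transcriptional regulators of the cytosolic arm, did not pass the threshold. Hsf1 gave 2.05, 1.96, 1.86 and 2.15 in WT hearts and 1.88, 1.96, 1.94 and 2.09 in SIRT1 KO hearts, overlapping almost fully. The difference was -0.04 ± 0.09 (adjusted p = 0.841, limma), and the second probe gave 0.05 ± 0.12. Hsf2, which forms mixed trimers with Hsf1, has 3 probes that did not give the same sign. Its brightest probe gave -4.45, -4.61, -4.72 and -4.39 in WT and -4.45, -4.63, -4.57 and -4.80 in SIRT1 KO, a difference of -0.07 ± 0.10 (adjusted p = 0.747, limma). A dimmer probe did not overlap between the genotypes and differed by 0.33 ± 0.10 (adjusted p = 0.114), and the third differed by -0.11 ± 0.15. All 3 Hsf2 probes lay far below the 75th percentile of their arrays.

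Among the cytosolic HSP70, HSP110 and HSP90 genes, the ATP-driven folding core of the cytosol, 4 of 8 were positive, 4 were negative and 0 passed the threshold. Hspa1a and Hspa1b encode the stress-inducible HSP70 and are near-identical neighbours, so their probes may share transcripts. The 250 bases before their starts were equal at 247 positions (98.8%), and each holds 1 pair of heat shock units, printed in capitals at the same distance from the start. Both lie on the minus strand, Hspa1a at chr17:34972157-34972406 and Hspa1b at chr17:34959239-34959488:
Hspa1a: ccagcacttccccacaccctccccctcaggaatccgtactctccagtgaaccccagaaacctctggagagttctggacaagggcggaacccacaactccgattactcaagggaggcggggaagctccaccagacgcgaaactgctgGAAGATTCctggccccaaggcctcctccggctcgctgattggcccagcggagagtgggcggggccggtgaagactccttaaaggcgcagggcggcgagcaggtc
Hspa1b: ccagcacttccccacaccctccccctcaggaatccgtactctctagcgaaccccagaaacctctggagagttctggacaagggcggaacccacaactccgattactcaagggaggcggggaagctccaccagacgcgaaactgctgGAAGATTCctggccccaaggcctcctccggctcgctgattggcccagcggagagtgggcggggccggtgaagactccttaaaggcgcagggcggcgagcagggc

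On its brighter probe Hspa1a gave 0.46, 0.07, 0.05 and 0.33 in WT hearts and 0.58, 0.53, 0.10 and 0.42 in SIRT1 KO hearts. Values below 0.10 were found in both genotypes, and the difference was 0.18 ± 0.14 (adjusted p = 0.476, limma), with 0.02 ± 0.12 on the second probe. Hspa1b gave -2.18, -2.47, -2.10 and -1.85 in WT and -1.96, -1.77, -2.17 and -1.90 in SIRT1 KO, a difference of 0.20 ± 0.14 (adjusted p = 0.431, limma) with overlapping genotypes. With no scaling it was -0.02, where the median of all genes tested was -0.23. A second Hspa1b probe was well above background on 0 of 8 arrays and was not tested. The 95% intervals of this fit reached from -0.13 to 0.48 for Hspa1a and from -0.11 to 0.51 for Hspa1b.

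Hsp90ab1, the constitutive cytosolic HSP90, gave 5.64, 5.67, 5.58 and 5.74 in WT and 5.74, 5.71, 5.77 and 5.87 in SIRT1 KO. The difference was 0.11 ± 0.07 (adjusted p = 0.385, limma), and its second probe gave -0.07 ± 0.09. The brightest probe gave -0.01 with median scaling and -0.10 with no scaling, both above the median of all genes tested in those settings (-0.14 and -0.23). The inducible Hsp90aa1 differed by -0.02 ± 0.07, with an interval from -0.18 to 0.15. Hspa8, the constitutive HSP70, differed by 0.04 ± 0.11, Hspa4 by -0.09 ± 0.09 and Hspa2, known for its role in the testis, by -0.11 ± 0.10. Hsph1, the inducible HSP110 that exchanges nucleotide on HSP70, gave 2.52, 2.49, 2.45 and 2.95 in WT and 2.22, 2.55, 2.23 and 3.01 in SIRT1 KO. Replicate 4 was the highest of either genotype, and the difference of -0.10 ± 0.19 had the largest standard error of this group by the brightest probe.

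Co-chaperones hand substrates to HSP70 and HSP90 or set the pace of their cycle. Stip1, the adaptor that links HSP70 to HSP90, gave 2.43, 2.37, 2.31 and 2.60 in WT hearts and 2.16, 2.12, 2.27 and 2.30 in SIRT1 KO hearts. The genotypes did not overlap, by a narrow margin of 2.31 against 2.30, and the difference was -0.21 ± 0.09 (0.862-fold, adjusted p = 0.193, limma). Dnajb4, a J-domain protein that stimulates HSP70, gave 2.98, 2.96, 3.21 and 3.10 in WT and 3.05, 2.92, 2.99 and 3.01 in SIRT1 KO, a difference of -0.07 ± 0.08 (adjusted p = 0.649, limma). Its second probe gave 0.80, 0.76, 0.94 and 0.87 against 0.68, 0.69, 0.69 and 0.62, which did not overlap, and differed by -0.17 ± 0.07 (adjusted p = 0.199). The J-domain genes Dnaja1 and Dnajb1 differed by -0.06 ± 0.11 and 0.00 ± 0.08. Bag3, which joins HSP70 to small heat shock proteins in muscle, differed by 0.05 ± 0.15. Its SIRT1 KO hearts ran from 2.94 to 3.60 and its WT hearts from 3.04 to 3.25.

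Small heat shock proteins hold unfolding proteins without ATP, and several are abundant in striated muscle. Of 6 genes, 2 were positive, 4 were negative and 0 passed the threshold. Hspb8, the partner of Bag3, gave 2.21, 2.07, 2.12 and 1.91 in WT and 1.89, 1.63, 2.02 and 1.63 in SIRT1 KO. SIRT1 KO replicate 3 lay within the WT range and the other 3 below it, and the difference was -0.28 ± 0.11 (0.822-fold, adjusted p = 0.188, limma; exact permutation p = 0.0571). Hspb3, which forms complexes with Hspb2 in muscle, gave 3.43, 3.63, 3.54 and 3.61 in WT and 3.38, 3.51, 3.54 and 3.19 in SIRT1 KO, a difference of -0.15 ± 0.10 (adjusted p = 0.401, limma). Hspb1, Hspb2, Hspb6 and Hspb7 differed by -0.04, 0.01, -0.002 and 0.06, each with a standard error between 0.09 and 0.11. Within SIRT1 KO, replicate 3 was the highest heart in 5 of these 6 genes and replicate 4 the lowest in 5 of 6. Over all genes tested, replicate 3 was the highest in 33.9% and replicate 4 the lowest in 36.1%.

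All 3 mitochondrial chaperones had negative values and 0 passed the threshold. Hspd1 and Hspe1 encode the HSP60 chamber and its HSP10 lid and start 215 bases apart on opposite strands. The 30 bases around the heat shock element between them, chr1:55088053-55088082 on the plus strand, read with the units in capitals:
Hspd1 and Hspe1: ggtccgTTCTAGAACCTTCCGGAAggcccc

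Hspe1 gave 4.79, 4.88, 4.63 and 4.95 in WT hearts and 4.62, 4.65, 4.69 and 4.64 in SIRT1 KO hearts. The SIRT1 KO hearts lay close together and WT replicate 3 fell among them, and the difference was -0.16 ± 0.08 (0.893-fold, adjusted p = 0.295, limma). Hspd1 gave 6.47, 6.47, 6.45 and 6.60 in WT and 6.42, 6.23, 6.52 and 6.56 in SIRT1 KO. The difference of -0.06 ± 0.09 was smaller than the SD of the SIRT1 KO hearts (0.15). Hspa9, the HSP70 of the mitochondrial matrix, gave 5.61, 5.58, 5.56 and 5.52 in WT and 5.45, 5.23, 5.58 and 5.64 in SIRT1 KO, a difference of -0.09 ± 0.10 (adjusted p = 0.606, limma). With no scaling between arrays, when the median of all genes tested was also negative, Hspd1, Hspe1 and Hspa9 were among 8 of 42 members called lower, against 24.8% of all genes tested in that setting. Of all probes tested, 22.3% were then called lower.

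The sensors of the unfolded protein response span the ER membrane and detect misfolded protein in its lumen. Eif2ak3 (PERK), the kinase that slows translation, gave -0.38, -0.54, -0.46 and -0.34 in WT and -0.65, -0.64, -0.88 and -0.46 in SIRT1 KO. SIRT1 KO replicate 4 lay within the WT range and the other 3 below it, and the difference was -0.23 ± 0.10 (0.853-fold, adjusted p = 0.221, limma). Ern1 (IRE1), which splices the Xbp1 transcript, gave -3.69, -3.33, -3.65 and -3.44 in WT and -3.48, -3.37, -3.69 and -3.66 in SIRT1 KO. The difference was -0.03 ± 0.11 (adjusted p = 0.918, limma), and its sign turned in 6 of 20 alternative settings. Atf6, the sensor released as a transcription factor by cleavage in the Golgi, differed by -0.02 ± 0.10, with -0.08 ± 0.11 on the second probe.

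Transcription factors downstream of the sensors did not pass the threshold either. Xbp1 gave 1.06, 1.12, 0.98 and 1.09 in WT hearts and 0.78, 1.11, 0.75 and 1.12 in SIRT1 KO hearts. Replicates 2 and 4 of SIRT1 KO matched WT while replicates 1 and 3 lay below it, and the difference was -0.12 ± 0.10 (adjusted p = 0.539, limma). This signal measures the transcript as a whole and not its splicing. Atf4, the effector of the integrated stress response, gave 1.03, 0.80, 0.83 and 0.80 in WT and 1.01, 0.84, 0.79 and 0.56 in SIRT1 KO, a difference of -0.06 ± 0.11 (adjusted p = 0.764, limma). Its targets Ddit3 (CHOP), a factor linked to cell death, and Trib3, a pseudokinase, differed by 0.05 ± 0.14 and 0.07 ± 0.19. WT replicate 1 stood above the other WT hearts for Trib3, at -0.12 against -0.76 to -1.07. A dimmer Trib3 probe, well above background in 3 of 4 SIRT1 KO hearts, gave -0.50 ± 0.54, with SIRT1 KO replicate 1 at -6.09, the other SIRT1 KO hearts at -3.73, -3.60 and -3.56 and the WT hearts between -4.07 and -3.07. The negative sign thus goes with 1 heart.

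ER chaperones and disulfide isomerases are the classic targets of ATF6 and XBP1. Promoters of Hspa5 (BiP, the ER HSP70) and Hsp90b1 (the ER HSP90) are printed with the ER stress elements in capitals. The Hspa5 window is on the plus strand at chr2:34771840-34772089 and the Hsp90b1 window on the minus strand at chr10:86705445-86705694, and the second Hsp90b1 element is read on the opposite strand:
Hspa5: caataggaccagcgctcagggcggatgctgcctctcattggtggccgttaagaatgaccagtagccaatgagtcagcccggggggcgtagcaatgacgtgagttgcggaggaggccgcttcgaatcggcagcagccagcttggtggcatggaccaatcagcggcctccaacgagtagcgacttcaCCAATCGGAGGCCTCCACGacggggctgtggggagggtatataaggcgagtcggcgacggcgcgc
Hsp90b1: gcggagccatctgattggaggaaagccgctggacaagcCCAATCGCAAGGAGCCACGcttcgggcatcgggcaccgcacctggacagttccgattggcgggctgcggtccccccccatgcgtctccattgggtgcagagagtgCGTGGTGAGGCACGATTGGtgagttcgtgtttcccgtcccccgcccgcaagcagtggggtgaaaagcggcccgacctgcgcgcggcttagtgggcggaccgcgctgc

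Of the 6 measured genes, 2 were positive, 4 were negative and 0 passed the threshold. Hspa5, the usual index of an active unfolded protein response, gave 5.51, 5.64, 5.43 and 5.74 in WT and 5.28, 5.55, 5.34 and 5.81 in SIRT1 KO. The SIRT1 KO range enclosed the WT range, and the difference was -0.09 ± 0.13, with an interval from -0.38 to 0.20 (adjusted p = 0.728, limma). Hsp90b1 gave 5.60, 5.68, 5.22 and 5.50 in WT and 5.60, 5.89, 5.52 and 5.75 in SIRT1 KO on its brightest probe, a difference of 0.19 ± 0.12 (adjusted p = 0.395, limma). Its second probe gave 4.61, 4.94, 4.44 and 4.60 against 4.33, 4.40, 4.27 and 4.70, a difference of -0.22 ± 0.13 (adjusted p = 0.361). The Hsp90b1 probes thus pointed opposite ways and no direction is given for this gene. Canx, the lectin chaperone calnexin, gave 5.15, 5.19, 5.12 and 5.16 in WT and 4.90, 5.14, 5.10 and 5.01 in SIRT1 KO. All 3 Canx probes were negative (-0.11, -0.17 and -0.17), and the dimmest did not overlap between the genotypes, but none passed the threshold (smallest adjusted p = 0.282, limma). Hyou1, Pdia4 and Pdia6 differed by 0.09 ± 0.16, -0.14 ± 0.17 and -0.06 ± 0.09.

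Genes of ER-associated degradation, which clears misfolded proteins from the ER, were also within the spread of the hearts. Herpud1, a membrane scaffold of this pathway, gave 3.28, 3.26, 3.39 and 3.40 in WT and 3.39, 3.45, 3.10 and 3.76 in SIRT1 KO, a difference of 0.10 ± 0.13 (adjusted p = 0.71, limma). Edem1, a lectin that passes glycoproteins to degradation, gave 0.68, 0.68, 0.65 and 0.96 in WT and 0.59, 0.69, 0.59 and 0.88 in SIRT1 KO, a difference of -0.06 ± 0.10 (adjusted p = 0.777, limma). Replicate 4 was again the highest heart of each genotype for both. Dnajb9, an ER J-domain protein, differed by -0.05 ± 0.14.

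Probes of the same gene give a second measure of error. Of 22 genes with several tested probes, 10 had the same sign on all probes and 12 did not, and the median range between a gene's probes was 0.11. Besides Smyd1, the genes with 1 sign on every probe were Hspa1a on the positive side and Hspa4, Dnajb4, Hspd1, Hspa9, Atf6, Pdia6, Canx and Edem1 on the negative side.

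**Figure D3:**
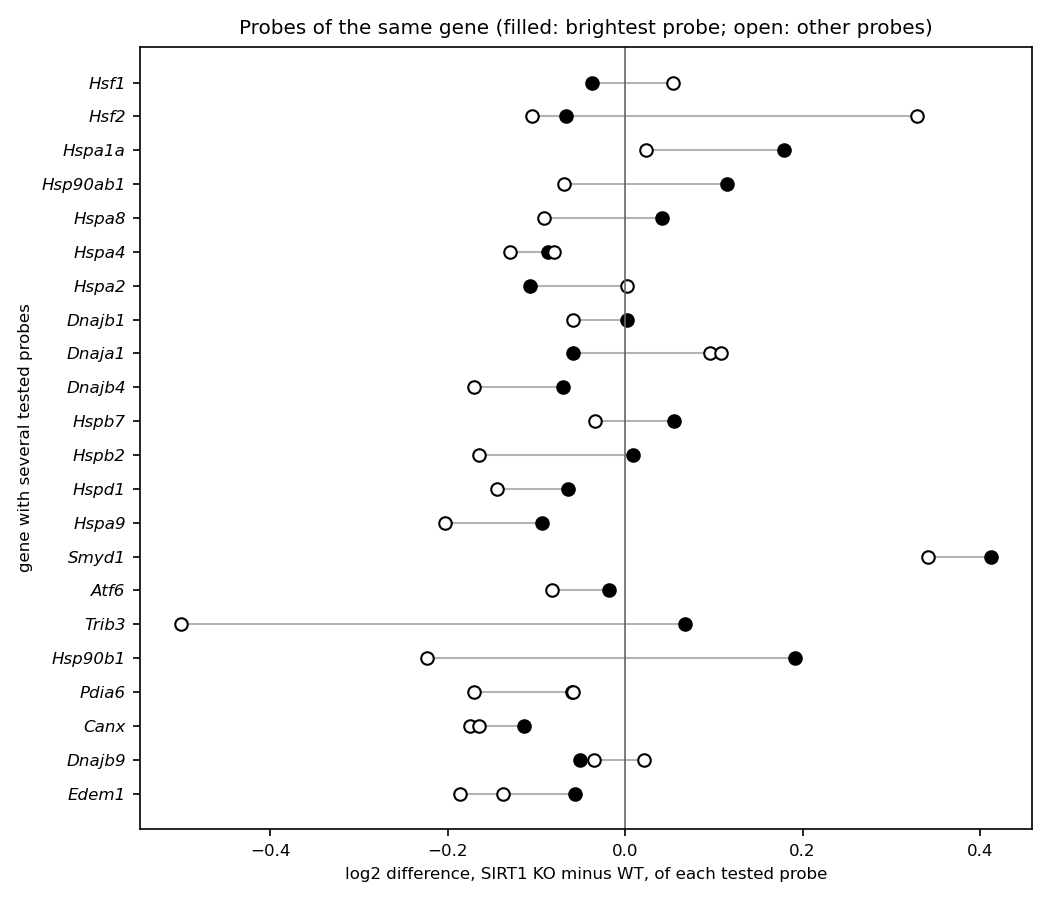
Log2 difference between SIRT1 KO and WT for every tested probe of the 22 genes with several tested probes, 1 row per gene, with the brightest probe filled. Smyd1 stands apart with both probes above 0.3, and probes of 12 genes, Hsp90b1 among them, lie on both sides of 0. The lowest point, of Trib3, goes with 1 heart, SIRT1 KO replicate 1.

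Differences between the genotypes were smaller than the larger of their SDs between hearts for 34 of 42 members. This count was not made over all genes tested, so it does not set the members apart. The hearts of a genotype were not ordered alike by all genes. In WT, replicate 4 was the highest heart for 18 of 42 members (42.9%), against 26.2% of all genes tested. In SIRT1 KO, replicate 4 was the highest for 17 of 42 (40.5%), against 22.4% of all genes tested. Replicate 4 was the highest in both genotypes for 14 of 42 members (33.3%), against 8.26% of all genes tested. These were Hsf1, Hspa8, Hsph1, Hsp90ab1, Dnaja1, Dnajb1, Stip1, Hspd1, Eif2ak3, Ddit3, Hspa5, Dnajb9, Edem1 and Herpud1. They belong to the cytosolic and the ER arm, apart from Hspd1, a mitochondrial chaperone. Hsph1 in replicate 4 lay 0.35 above the WT mean and 0.51 above the SIRT1 KO mean, and Hspa5 lay 0.16 and 0.31 above.

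A different heart led the ER folding enzymes. Replicate 2 was the highest in both genotypes for 4 of 6 ER chaperones and isomerases, namely Hsp90b1, Hyou1, Pdia6 and Canx, against 8.62% of all genes tested. In SIRT1 KO replicate 4 was the highest for the other 2, Hspa5 and Pdia4. Hyou1 in replicate 2 lay 0.28 above the mean of either genotype. All 3 genes of ER-associated degradation had replicate 4 as the highest heart in both genotypes. The labels do not say whether hearts with the same number shared a litter, a day or a place on the slide, and the part of these in the order was not tested. The liver marker sum was also the highest of the WT hearts in replicate 4 (28.3, the others 11.2 to 19.4), and in SIRT1 KO replicate 4 it was the second highest (64.7), and the part of liver RNA in this order was not tested. Of 12 immediate early genes, which respond within minutes to stress or handling, 11 were tested and 0 passed the threshold, with a summed signal of 20 to 23.1 in WT and 19.1 to 23.7 in SIRT1 KO and the lowest sums in replicate 4 of each genotype.

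**Figure D4:**
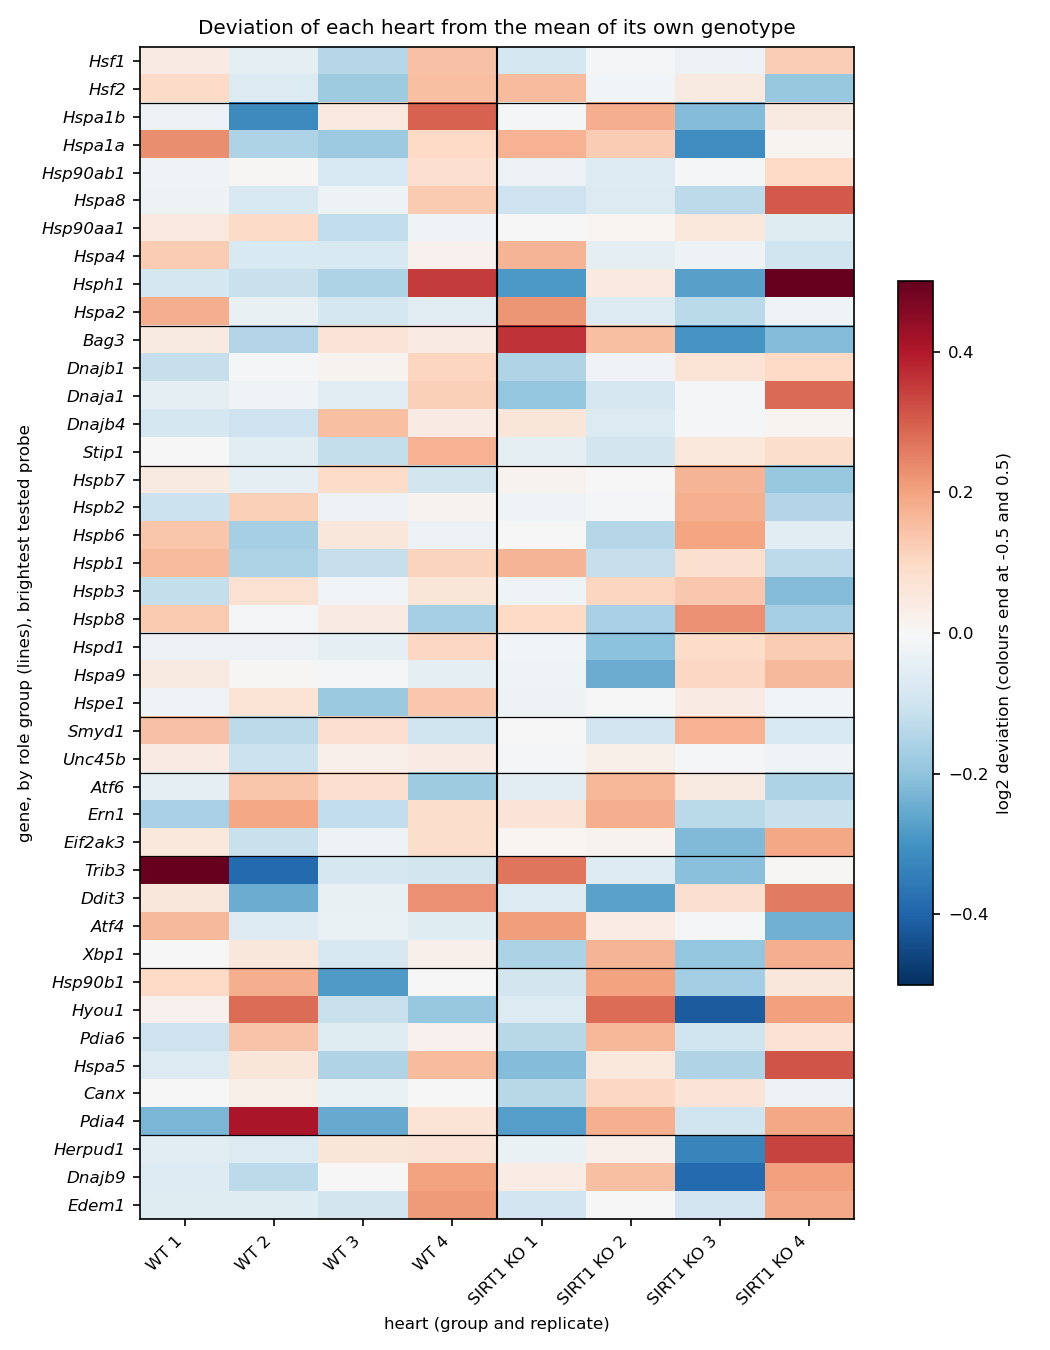
Deviation of each heart from the mean of its own genotype, on the log2 scale, for 42 genes in role groups separated by lines. The columns of replicate 4 are mostly red for HSP70 partners and ER-associated degradation genes in both genotypes, with Hsph1 at 0.35 and 0.51, while 5 of the 6 small heat shock genes are highest in replicate 3 of SIRT1 KO.

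Wider lists of the same pathways held 1 gene past the threshold. Among 43 other cytosolic and mitochondrial chaperones and co-chaperones, 41 were tested and 0 passed the threshold, with 12 positive, 29 negative and a median of -0.08. Of these 41, 5 had an unadjusted p under 0.05 (limma), against 20.4% of all genes tested, and 4 did not overlap, against 14.0%. The smallest p belonged to Hspbp1, a nucleotide exchange factor of HSP70. It gave 1.43, 1.29, 1.31 and 1.54 in WT and 1.23, 1.04, 1.19 and 1.05 in SIRT1 KO, which did not overlap, a difference of -0.27 ± 0.09 (adjusted p = 0.123, limma). Hspb9, a small heat shock protein known from the testis, gave -4.73, -4.98, -4.60 and -4.80 in WT and -4.69, -4.59, -4.36 and -4.09 in SIRT1 KO. SIRT1 KO replicate 1 lay within the WT range, and the difference was 0.34 ± 0.14 (adjusted p = 0.199, limma).

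Among 44 other ER folding and unfolded protein response genes, 43 were tested, 1 was higher and 0 were lower, against 3.69% and 0.890% of all genes tested, with 19 positive, 24 negative and a median of -0.01. Of these 43, 8 had an unadjusted p under 0.05 (limma), against 20.4% of all genes tested, and 5 did not overlap between the genotypes, against 14.0%. The gene past the threshold was Sesn2, sestrin 2, a stress-induced regulator of growth signaling. WT hearts gave -0.96, -1.09, -1.06 and -0.89, and those labelled SIRT1 KO gave -0.52, -0.64, -0.69 and -0.58. All SIRT1 KO hearts were above all WT hearts, and the difference was 0.39 ± 0.08 (1.31-fold, adjusted p = 0.0229, limma). Without WT replicates 1, 2 or 3 or SIRT1 KO replicates 1 or 2, left out one at a time, 0 genes of either wider list passed the threshold, and without WT replicate 4 there were 2, Sesn2 and Derl3. Derl3 was well above background in 1 of 4 WT and 3 of 4 SIRT1 KO hearts, so it entered the fit mainly through the genotype where it is high. Sesn2 was also not past the threshold with median scaling, with no scaling between arrays or with no filter on dim probes. Mbtps1, the protease that starts the cleavage of ATF6, gave 4.04, 4.10, 4.01 and 3.94 in WT and 4.32, 4.41, 4.18 and 4.24 in SIRT1 KO. These did not overlap, and the difference of 0.27 ± 0.08 missed the threshold (adjusted p = 0.0893, limma).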

How the data were processed

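Total RNA of 4 WT and 4 SIRT1 KO hearts was labeled with Cy3 and hybridized to one-color Agilent whole mouse genome 4x44 arrays. The authors deposited the spot intensity of each array as written by Agilent Feature Extraction, background-subtracted and error-modelled with one-color defaults and not scaled between arrays. The file headers name version 12.0.0.7 of that software, the submitters' processing notes 12 and the methods an earlier one. The deposited table of series intensity values equals the processed signal in 100% of spots, so it was not run as an alternative. Here log2 of the processed signal was taken and each array's 75th percentile over non-control spots subtracted. Control and outlier spots were left out and the spots of a probe averaged. The raw-signal alternative (normexp, offset 50) used median signals, since the files used here hold no mean signal. Accessions named 28215 of 41174 probes through RefSeq genes of GRCm38.p6. Probes had to be well above background on 4 or more of the 8 arrays. This left 25615, which were fitted with limma 3.58.1 in R 4.3.3 (lmFit, eBayes) with Benjamini-Hochberg adjustment over all of them at 0.05, and a gene was reported by its brightest tested probe. The study's own test was an analysis of variance with the same correction and served as an alternative. The fit was tested on simulated data with 200 probes changed 2-fold, more than any member differed here. That check says nothing about differences as small as those of the members. Exact permutation tests were two-sided. P-values set the difference between the genotypes against the spread between hearts of a genotype, and the number of arrays limits the precision. They do not take in a spread between slides, since each genotype was on its own slide. Motifs and plots used Python 3.11.15, pandas 2.3.3 and matplotlib 3.10.9. Full values are given for members past the threshold or with no overlap on the brightest probe and for the 2 smallest p-values of each role group, and from each wider list for genes past the threshold and the 2 smallest p-values. Other values (Hspa1a, Hsph1, Hspd1 and Hspa5 by heart, and the Hspa5, Hsp90b1 and Hspd1 promoter stretches) were chosen after their values were seen. The members and lists were chosen with earlier results of these data known. The role groups and the wider and marker lists were compiled from general knowledge.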

Additional observations from a re-analysis of the deposited data

Results flagged for a closer look

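In 7 of 84 groups of 4 hearts (42 genes by 2 genotypes), 1 heart lay farther from the nearest of the others, as a share of the group's range, than Dixon's 95% critical value. For independent groups of normal values chance gives about 1 in 20, but these genes were measured in the same hearts. The share over all genes tested was not computed, so the count cannot be read as a trait of the members. WT replicate 4 was the high heart for Hsph1 (0.869, at 2.95 against 2.52 for the next), Hspd1 (0.889, at 6.60 against 6.47) and Edem1 (0.901, at 0.96 against 0.68). WT replicate 2 was the low heart for Bag3 (0.88, at 3.04 against 3.22) and Unc45b (0.888, at 5.30 against 5.43). WT replicate 1 was the high heart for Atf4 (0.866, at 1.03 against 0.83). SIRT1 KO replicate 4 was the high heart for Hspa8 (0.851, at 6.40 against 6.03). These 7 genes were not past the threshold, and the cause of these values was not tested.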

How the results depend on the processing

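The count of member probes past the threshold was 1, and it was 2 with normexp and with trend and robust eBayes (both Smyd1), 0 with no filter on dim probes and with the methods' analysis of variance, and 16, all lower, with no scaling between arrays, where 22.3% of all probes tested were lower. The count of member genes was 1, and it was 0 with median scaling, no filter and the analysis of variance, and 8, all lower, with no scaling, against 24.8% of all genes tested. Leaving out 1 heart gave 0 to 1 member probes and 0 to 1 member genes. Without SIRT1 KO replicate 4 the 1 probe was of Edem1, lower, and not of Smyd1, and with median scaling it was of Dnajb4, lower. The count for the wider lists was 1, and it was 3 with normexp, with array quality weights and with the replicate block, 2 with trend and robust eBayes, 0 with no filter, 27, all lower, with no scaling (against the same 24.8%), and 0 to 2 without 1 heart. With median scaling the 1 gene was Hspbp1, lower, and not Sesn2. The member median was -0.046, and it was -0.175 with median scaling and -0.266 with no scaling, where the median of all genes tested was -0.135 and -0.227 against -0.007. Without 1 heart the member median ran from -0.071 (WT replicate 3 left out) to -0.008 (WT replicate 4 left out).

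Smyd1 was positive in all 20 alternatives (0.193 to 0.462) and past the threshold in 9 (adjusted p 0.0162 to 0.17). Signs turned with no scaling for Unc45b (-0.073), Hspa1b (-0.02), Hsp90ab1 (-0.104), Hsp90b1 (-0.027) and Herpud1 (-0.124), with median scaling for Hsp90ab1 (-0.013) and Herpud1 (-0.033), with normexp for Hsf2 (0.143) and Ern1 (0.16), with array weights for Ern1 (0.072), and with the mean of a gene's probes for Hsf1 (0.009), Hsf2 (0.052) and Hsp90b1 (-0.015). Without 1 heart, Hsf1 ran from -0.084 to 0.013, Ern1 ran from -0.085 to 0.04, Atf4 ran from -0.134 to 0.016, Edem1 ran from -0.12 to 0.013 and Herpud1 ran from -0.017 to 0.205. Of 400 such values for 20 members, 361 kept direction and side of the threshold, 11 were no longer past it (all Smyd1), 7 were newly past it (all with no scaling) and 21 changed sign. The cause was not tested.

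Replicate numbers do not pair the samples by the labels. Deviations of same-numbered hearts correlated at -0.179, 0.182, 0.177 and 0.263 over the member probes and at 0.204, 0.207, 0.056 and 0.141 over all probes tested, the latter each above that WT heart's correlation with SIRT1 KO hearts of other numbers (at most 0.093), as a hint from the data only. With the replicate block, 1 member probe and 1 member gene, Smyd1 (adjusted p = 0.0424, limma), were past the threshold, and 3 genes of the wider lists, Derl3 and Sesn2 higher and Chac1 lower, where Derl3 was well above background on 1 WT and 3 SIRT1 KO arrays. By their brightest probe all 42 members were well above background on all 8 arrays, and the untested Hspa1b probe was on 0.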
